A study of Rattus norvegicus with 17 samples.

Results

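The kidneys of rats after sub-total nephrectomy (SNx) did not all lose the expression of tubular transporters to the same extent. The spread of that loss was described within the SNx libraries alone, and the unoperated group served as a reference level. The 12 SNx libraries were ranked by the log2 CPM (counts per 1000000 counts of the scaled library, on the log2 scale) of Slc3a1, the heavy chain of the cystine and dibasic amino acid transporter, and the 6 lowest were set against the 6 highest. They make up 12 of the 17 libraries of the series, and the other 5 came from NoOp controls. The first 6 are called Slc3a1-low and the others Slc3a1-high. Since the groups were chosen by a measured value, every difference between them is given as a description with no test, and Slc3a1 itself is left out of the counts of named genes.

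All rats were male Wistar Han, per the study's methods, and the labels give the tissue as kidney and the treatment as SNx or NoOp. In SNx, part of the right kidney was resected and the left kidney was removed in a later operation, so the tissue is a remnant kidney. The study's methods call the controls of this experiment sham-operated, while the labels say NoOp, and that name is kept. No transgene or drug was used. The study's methods set the end point of SNx rats as a limit on proteinuria or serum creatinine, so the time after surgery could differ between rats. Per the study's text, most of the operated rats in its experiment with 5 controls did not reach that limit, and the labels do not say which of the 12 SNx libraries come from rats that did. The study's methods report RNA integrity estimates that varied widely over its samples, down to very low values. The time, the kidney function and the RNA integrity of each rat were not analysed here, and the part of each in the results was not tested.

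The proximal tubule reclaims most of what the glomerulus filters. Sodium-coupled carriers in its apical brush border take up glucose, amino acids, phosphate and carboxylates, peptidases in the brush border release amino acids, and megalin and cubilin take up filtered protein. On the basolateral side, organic anion and cation carriers bring in drugs and waste products for secretion. The cells burn fatty acids, make glucose and depend on transcription factors such as Hnf4a, and injured tubules are known to lose this program while they gain genes such as Lcn2 and Spp1.

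Slc3a1 reached 7.25 log2 CPM in the lowest SNx library, SNx 1, and 11.22 in the highest, SNx 11, while the NoOp libraries lay between 11.67 and 12.04. The Slc3a1-low libraries were SNx 1, 5, 6, 7, 8 and 10, and the Slc3a1-high libraries SNx 2, 3, 4, 9, 11 and 12. The libraries just inside and just outside the division were SNx 7 at 9.94 and SNx 3 at 10.14, a gap of 0.20 on the log2 scale, so the division was made within a continuous range. Library numbers in the sample titles fall into 2 ranges, and each group took 3 of its 6 libraries from the first range and 3 from the second, while all NoOp libraries carry numbers of the first. Total counts were 19210434 to 25400377 in the Slc3a1-low libraries and 21865713 to 30784070 in the Slc3a1-high libraries. With counts thinned to one depth the numbers of genes below hardly moved, to 210 lower and 36 higher. Of these, 195 and 28 were among the 213 and 37 counted below, so some of the genes changed. SNx 1 stood apart. It held the lowest value of the 12 libraries for 27.3% of all genes tested, and for 183 of the 212 genes counted below as lower. The medians of the lists below are therefore also given without it, as are values of some single genes. Differences of other genes also shrank without it, such as Ust5r (-2.67 to -2.06), Slc22a25 (-3.29 to -2.70) and Slc5a8 (-2.83 to -2.26).

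Of 15438 genes tested, 213 including Slc3a1 were lower in the Slc3a1-low libraries by at least 1 on the log2 scale with no overlap between the groups (1.38% of all genes tested), and 37 were higher by the same rule (0.24%). The median difference over all genes was -0.01. With library size alone as the scaling, the numbers were 127 lower and 64 higher, so the share of lower genes went from 85.2% to 66.5%. Leaving out SNx 1 gave 179 lower and 34 higher genes. Leaving out a library next to the division gave more, with 693 and 179 without SNx 7, 287 and 78 without SNx 3, and 341 and 93 without SNx 12. Of the genes counted, 128 of the lower and 9 of the higher carried a symbol. Symbols were known for 2002 of the genes tested, Slc3a1 aside. They were taken from gene lists of changed genes, so they are no even sample of the kidney's genes. Of the 2002, 6.39% were lower by the rule, 1018 had the lower mean in the Slc3a1-low libraries and 984 the higher. Over all genes tested, 7865 had the lower mean there and 7573 the higher.

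Within the groups, the median SD over all genes tested was 0.26 log2 CPM in the Slc3a1-low, 0.21 in the Slc3a1-high and 0.17 in the NoOp libraries, and the SD was smaller in the Slc3a1-high than in the Slc3a1-low group for 68.0% of genes. Slc3a1 itself had SDs of 0.98 and 0.48 in the SNx groups, and the lower genes were chosen by the same division, so their spread is a description. Among the 213 lower genes the median SD was 0.82 log2 CPM over the Slc3a1-low libraries, 0.38 over the Slc3a1-high libraries and 0.24 over the NoOp libraries, and the SD was smaller in the Slc3a1-high group for 200 of them. SNx 7 had the highest value of its group for 193 of the 212 lower genes other than Slc3a1. It was also the highest of its group in Slc3a1, by which the libraries were ranked. SNx 12 had the lowest value of the Slc3a1-high group for 100 of the 212.

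In the nutrient transporter list, which holds carriers for amino acids, sugars, phosphate, sulfate, vitamins and carboxylates, 25 of 34 members had a symbol and were tested. Of these, 10 were lower in the Slc3a1-low libraries by the rule above, 0 were higher, and 24 had the lower mean there. The 10 are 40.0%, beside 6.39% lower by the rule of the 2002 genes with a symbol. The median difference was -1.61, or -1.33 without SNx 1. The summed level of the 25 carriers was 664 to 4157 CPM in the Slc3a1-low libraries, 4641 to 7400 CPM in the Slc3a1-high libraries and 8354 to 11980 CPM in the NoOp libraries. The 3 groups did not overlap in this sum. Of the proximal lists below, the sums of the SNx groups overlapped for metabolic enzymes, transcription factors and salt, acid and water transport. They were separate for brush border and fatty acid oxidation genes.

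Slc34a1, the main sodium-phosphate cotransporter of the proximal tubule, ran from 6.58 to 11.01 log2 CPM over the Slc3a1-low libraries with a median of 8.95. In the Slc3a1-high libraries it ran from 11.06 to 11.76 with a median of 11.31, and NoOp had 11.85 to 12.39. The groups were separate, with a 5.61-fold lower mean in the Slc3a1-low group, but the highest Slc3a1-low library, SNx 7, lay next to the lowest of the other group, and with library size alone as the scaling the groups overlapped at a difference of -2.41, against -2.49 here. Slc5a8, a sodium-coupled carrier of lactate and other monocarboxylates, ran from -0.42 to 4.63 log2 CPM against 4.21 to 6.04, and here the groups overlapped although the difference in means was -2.83. Slc13a2, which takes up citrate and other dicarboxylates, ran from 1.56 to 5.16 against 4.99 to 6.29, also with overlap, and its difference was -2.33. Slc6a18, an apical carrier of neutral amino acids named here after its values were seen, ran from 5.42 to 7.61 in the Slc3a1-low libraries and from 7.90 to 8.99 in the Slc3a1-high libraries without overlap.

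**Figure D1:**
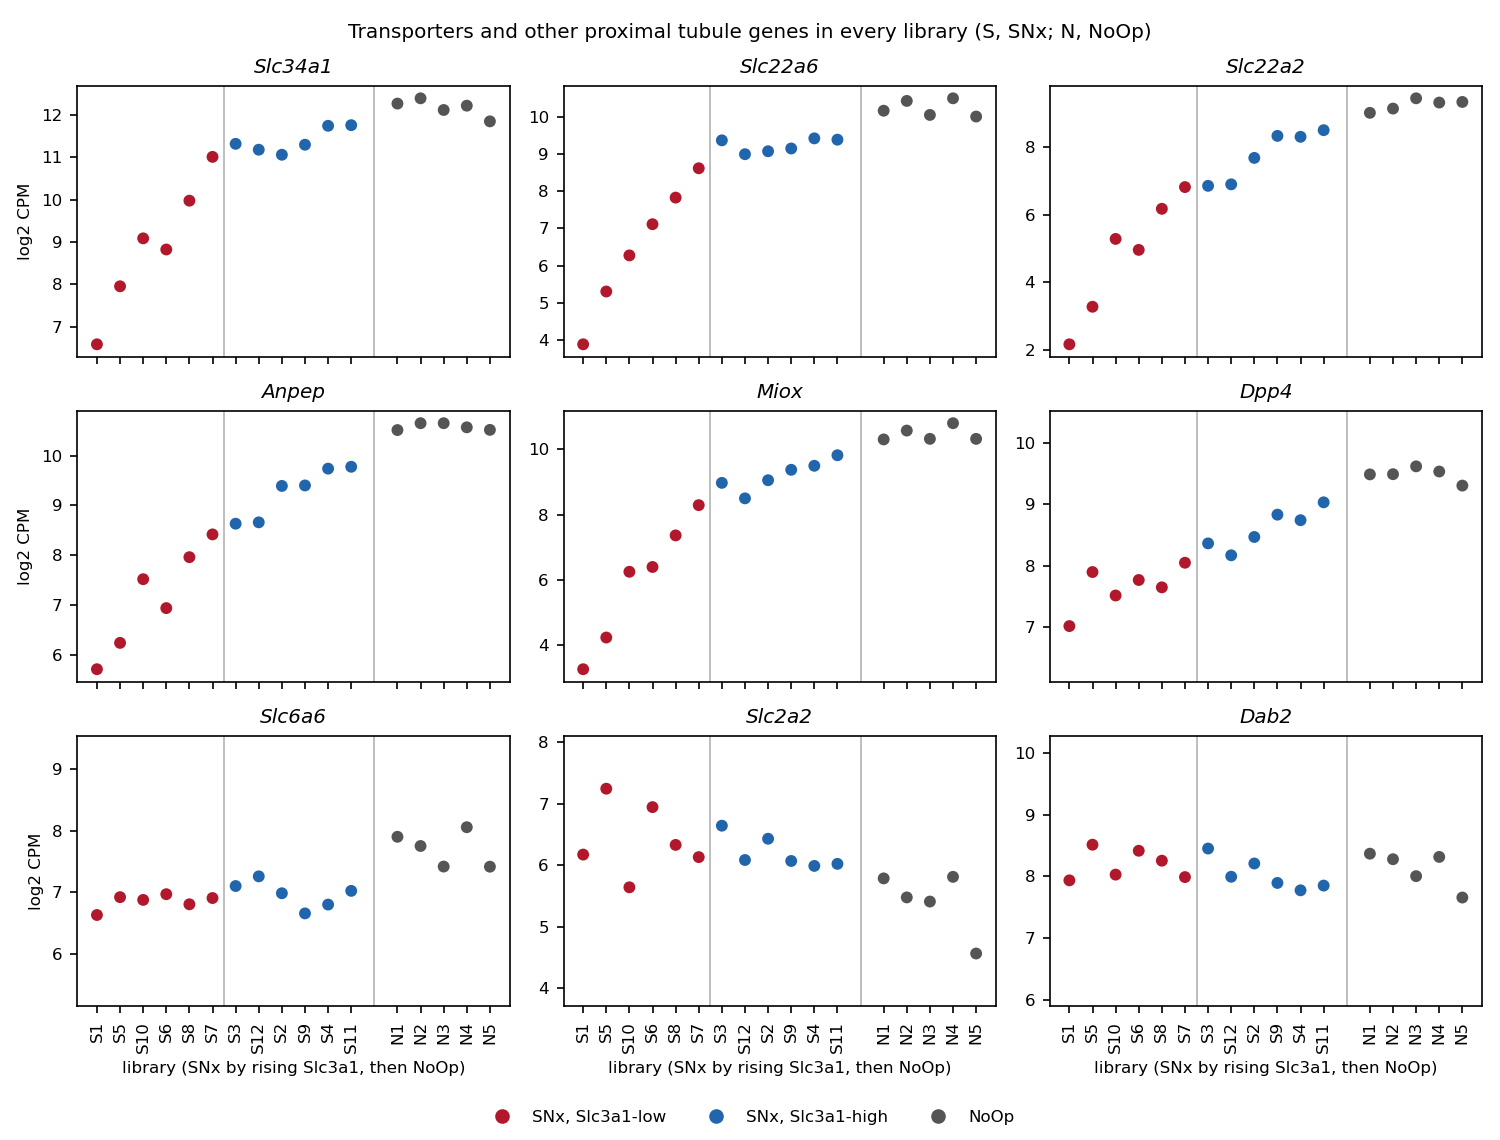
The plots give log2 CPM (vertical axis) of single genes in every library, with the 12 SNx libraries (S) in order of rising Slc3a1 and then the 5 NoOp libraries (N); vertical lines separate Slc3a1-low, Slc3a1-high and NoOp. Slc34a1, Slc22a6, Slc22a2, Anpep and Miox climb from the left and are lowest in SNx 1, Dpp4 has a smaller range, and Slc6a6, Slc2a2 and Dab2 overlap between the SNx groups.

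The organic ion and drug transporter list gave the largest median of the transporter lists. Of its 28 members 16 had a symbol and were tested. By the rule 9 (56.2%) were lower and 0 higher, beside 6.39% lower of the 2002 genes with a symbol. The median difference was -1.98, or -1.66 without SNx 1. Their summed level was 215 to 1414 CPM in the Slc3a1-low libraries, 1648 to 3055 CPM in the Slc3a1-high libraries and 3848 to 4995 CPM in the NoOp libraries, again without overlap.

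Slc22a6, the basolateral organic anion carrier OAT1, ran from 3.89 to 8.61 log2 CPM in the Slc3a1-low libraries with a median of 6.69. In the Slc3a1-high libraries it kept within 8.99 to 9.41, below a NoOp median of 10.16 and highest value of 10.49, and the SD was 1.72 in the first group against 0.18 in the second. The means differed 6.60-fold. Slc22a2, the basolateral organic cation carrier OCT2, ran from 2.16 to 6.81 against 6.85 to 8.49, with 9.01 to 9.44 in the NoOp libraries. Its groups were separate by a narrow margin, and with library size alone as the scaling they overlapped at a difference of -2.90, against -2.98 here. With counts thinned to one depth they overlapped too, at -2.96. Slc22a25, a member of the same family, ran from -0.85 to 4.61 against 4.70 to 5.97, a 9.80-fold difference in means that rests on as few as 10 estimated counts in SNx 1. Ust5r, another rat gene of this family, ran from -0.85 to 3.91 against 4.32 to 5.34.

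The organic anion transporting polypeptides Slco1a1 and Slco1a6 had the largest differences of the list but did not separate the groups. Slco1a1 ran from -1.14 to 4.83 log2 CPM in the Slc3a1-low libraries and from 4.59 to 7.28 in the Slc3a1-high libraries, with 7.51 to 8.42 in the NoOp libraries. The means differed 22.2-fold, and the lowest value, in SNx 1, came from 9 estimated counts. Slco1a6 ran from -0.25 to 6.20 against 5.82 to 8.45, with a difference in means of -3.49, or -2.73 without SNx 1. As near relatives in sequence, these carriers may share reads, so the division of counts between them is uncertain.

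Of the proximal salt, acid and water genes, 4 of 10 had a symbol and were tested. All 4 had the lower mean in the Slc3a1-low libraries, 0 met the rule, and the median difference was -1.57, or -1.24 without SNx 1. Aqp1, the water channel of the proximal tubule and thin limb, ran from 7.51 to 9.94 log2 CPM against 9.89 to 10.71. Slc9a3, the apical sodium-proton exchanger NHE3, ran from 3.73 to 7.28 against 7.09 to 7.63, and its difference went from -1.51 to -1.08 without SNx 1. Kcnj15, a potassium channel, differed by -2.12, and Aqp7, a channel for water and glycerol, by -0.94. The groups overlapped for each of these genes.

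In the brush border and endocytosis list 15 of 22 members were tested. By the rule 5 (33.3%) were lower and 0 higher, beside 6.39% lower of the 2002 genes with a symbol. The median difference was -1.53, or -1.29 without SNx 1. Anpep, the brush border aminopeptidase N, ran from 5.71 to 8.42 log2 CPM in the Slc3a1-low libraries, 8.63 to 9.78 in the Slc3a1-high and 10.51 to 10.65 in the NoOp libraries, with a 4.40-fold difference between the SNx groups. Xpnpep2, an aminopeptidase that cleaves before proline, ran from 3.11 to 6.36, with a median of 4.86, and reached a median of 7.05 in the Slc3a1-high libraries, without overlap. Dpp4, a dipeptidyl peptidase, differed less. It ran from 7.02 to 8.05 against 8.17 to 9.03, so the groups were separate, but the difference of -0.95 was below the limit of 1. Of the endocytic receptor genes, named here after their values were seen, Lrp2 (megalin) and Amn (amnionless, the partner of cubilin) were lower by the rule, with differences of -1.36 and -1.53. Cubn (cubilin) ran from 8.18 to 9.26 against 9.10 to 9.61, and Vil1, an actin-bundling protein of the microvilli, from 5.70 to 6.65 against 6.49 to 6.86, and these overlapped for both Cubn and Vil1.

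Against NoOp, these genes fell in the SNx group as a whole. By edgeR's quasi-likelihood test with Benjamini-Hochberg adjustment over 15438 genes, 27.7% of all genes tested fell and 30.3% rose in the 12 SNx libraries at FDR under 0.05. In the nutrient transporter list 24 of 25 fell and 1 rose, in the organic ion list 11 of 16 fell and 1 rose, in the salt, acid and water list 4 of 4 fell, and in the brush border list 13 of 15 fell. Most symbols come from genes that the study found changed, so these counts are not independent evidence of direction. Of the 2002 genes with a symbol 811 fell and 1070 rose, so the same limit holds for such counts in the lists below. With library size alone as the scaling, under which the median over all genes went from 0.02 to 0.23 (log2 fold change), 7044 genes rose and 2403 fell.

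The spread within SNx enters the error of these tests. Slc34a1 had a log2 fold change of -1.42 ± 0.56 (SE) against NoOp with an adjusted p of 0.038 (edgeR). Over 22 other settings its adjusted p ran from 0.023 to 0.072 and was above the threshold in 8, which were library size alone and leaving out SNx 6, 8 or 10 or NoOp 1, 2, 3 or 4. Slc22a6 had one of -1.68 ± 0.59 with an adjusted p of 0.021 (edgeR), and 0.011 to 0.045 over the same settings. Dpp4, with its smaller change of -1.26 ± 0.24, had an adjusted p of 0.00040, and Slc6a6, with -0.81 ± 0.11, one of 1.58e-05. Ust5r did not pass, with -1.20 ± 0.57 and an adjusted p of 0.077 (edgeR; 0.025 to 0.13 over the other settings, under the threshold with limma-voom and without SNx 1 or SNx 11), although 11 of the 12 SNx libraries were below the lowest NoOp library. Of the 213 genes lower in the Slc3a1-low libraries, 186 fell in SNx against NoOp, 0 rose and 27 did not pass. Of the 37 higher genes, 34 rose, 0 fell and 3 did not pass.

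The Slc3a1-high libraries were mostly below NoOp as well. For the 213 lower genes, the median difference of group means from NoOp was -0.88 log2 CPM in the Slc3a1-high libraries and -2.62 in the Slc3a1-low libraries. For 125 of them all 6 Slc3a1-high libraries lay outside the NoOp range, and for 88 at least 1 lay within it. All 6 Slc3a1-low libraries lay outside the NoOp range for 207. For 14 genes at least 4 of the Slc3a1-high libraries lay within the NoOp range. Over all 15438 genes tested, all 6 Slc3a1-high libraries lay outside the NoOp range, on either side, for 4465. All 6 Slc3a1-low libraries did so for 7385 of the 15438. The comparisons of each group with NoOp share the same 5 control libraries.

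**Figure D2:**
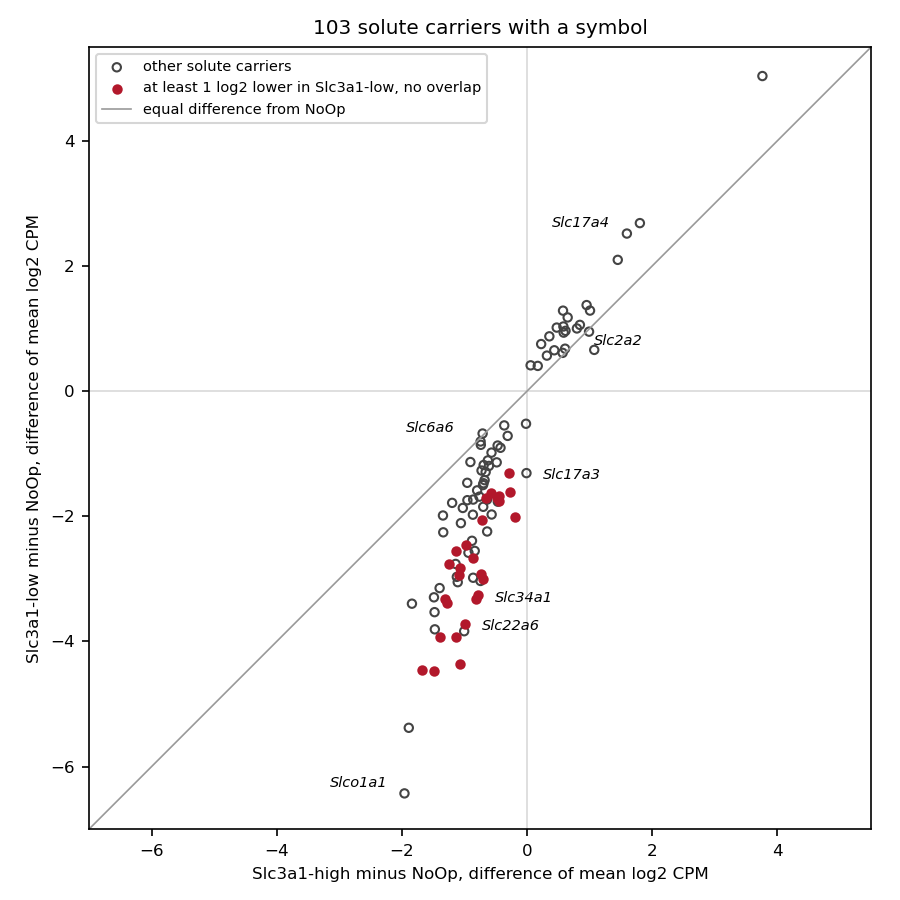
Each point is 1 of 103 solute carriers with a symbol, with the difference of mean log2 CPM between Slc3a1-high and NoOp on the horizontal axis and between Slc3a1-low and NoOp on the vertical axis, filled where the carrier was lower in Slc3a1-low by at least 1 with no overlap. The median is -0.70 on the horizontal axis and -1.70 on the vertical axis, and most points below 0 lie under the line of equal difference, with Slc6a6 near it.

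Over all 103 solute carriers with a symbol, whatever their cell type, 27 (26.2%) were lower in the Slc3a1-low libraries by the rule and 0 were higher, beside 6.39% lower of the 2002 genes with a symbol and 1.38% of all genes tested. The mean was lower for 80 and higher for 23, and the median difference was -0.93, or -0.76 without SNx 1. Against NoOp 73 fell and 23 rose in the SNx group (edgeR, FDR under 0.05), beside 811 and 1070 of the 2002 genes with a symbol. The 11 carriers of the Slc25 family, which serve the inner mitochondrial membrane, had a median difference of -0.87 between the SNx groups (-0.72 without SNx 1), and 0 of them met the rule.

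Several proximal genes did not follow Slc3a1. Slc6a6, the taurine carrier, ran from 6.63 to 6.97 log2 CPM in the Slc3a1-low libraries and from 6.66 to 7.26 in the Slc3a1-high libraries. These ranges overlapped, with a difference in means of -0.12, and both lay below the NoOp range of 7.42 to 8.06. Slc2a2, the basolateral glucose carrier GLUT2, ran from 5.64 to 7.24 against 5.99 to 6.64, while NoOp ran from 4.56 to 5.81. It rose in SNx by 0.91 ± 0.24 (SE, log2 fold change, adjusted p = 0.0047, edgeR), and the SNx groups overlapped. Slc17a4, an organic anion and urate carrier, ran from 4.29 to 5.16 in the Slc3a1-low libraries and from 3.41 to 4.46 in the Slc3a1-high libraries, above 1.69 to 2.96 in NoOp. Its log2 fold change against NoOp was 2.12 ± 0.33 (adjusted p = 6.98e-05, edgeR). Dab2, the adaptor of the megalin and cubilin receptors, ran from 7.94 to 8.52 against 7.78 to 8.45, with 7.66 to 8.37 in NoOp. It did not pass the test against NoOp (log2 fold change -0.02 ± 0.14, adjusted p = 0.92, edgeR). Unlike these genes, Slc17a2, of the same family as Slc17a4, was lower in the Slc3a1-low libraries by the rule, with a difference of -1.22. Without SNx 1 its difference was -0.92, and among libraries of the second number range -0.69, so it met the rule in neither.

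**Figure D3:**
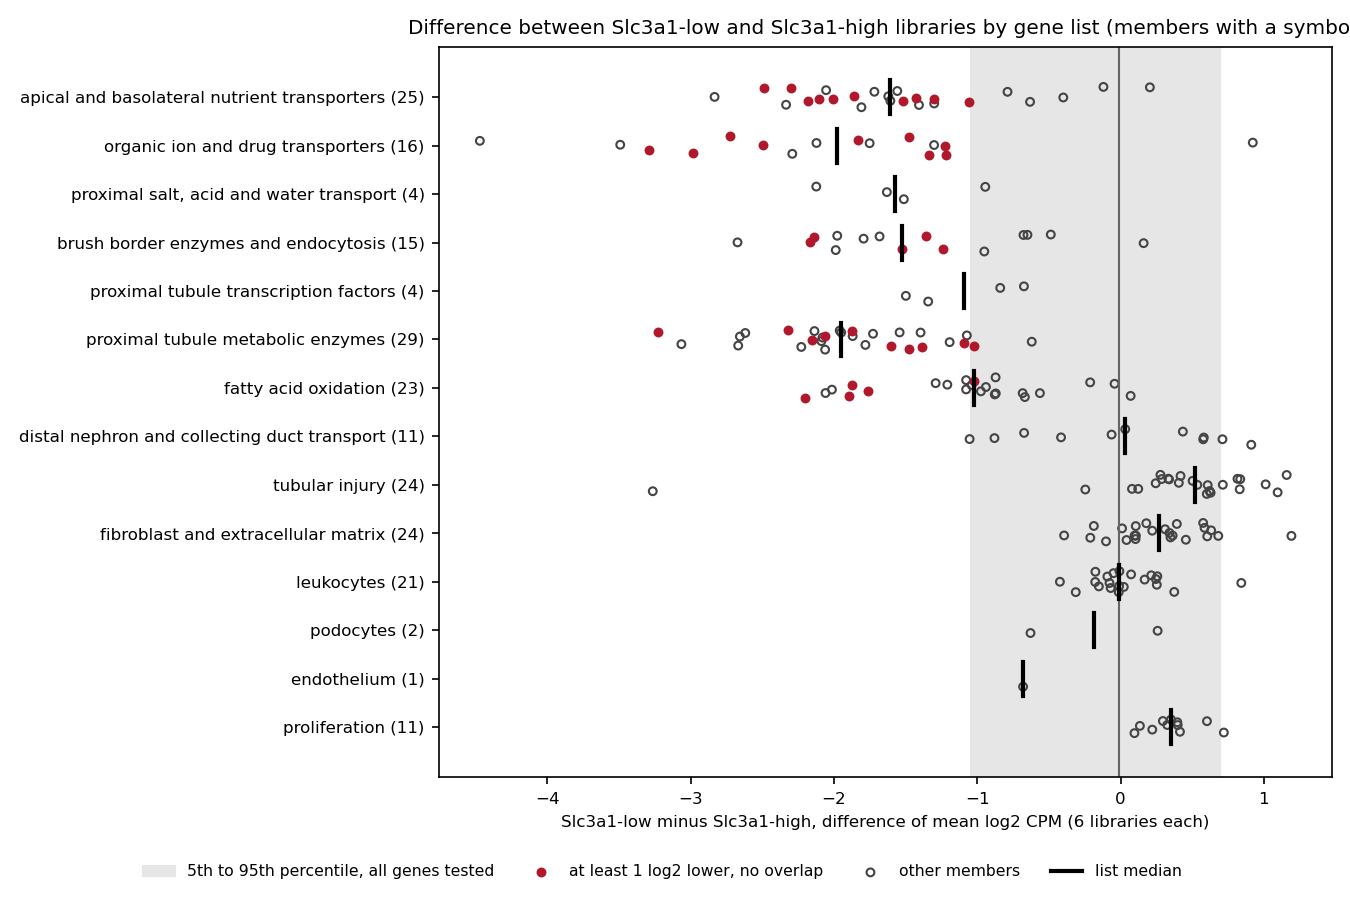
Each point is a gene of the list named on the left (number of members shown in brackets), at its difference of mean log2 CPM between Slc3a1-low and Slc3a1-high libraries (6 each); filled points were lower by at least 1 without overlap, bars are list medians, and the grey band holds the 5th to 95th percentile of all genes tested, from -1.04 to 0.69. The proximal tubule lists lie to the left of the others, with medians from -1.02 to -1.98, and Tff3 is the 1 point of the tubular injury list far to the left.

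Among the transcription factors of the proximal tubule, 4 of 11 had a symbol and were tested. All 4 had the lower mean in the Slc3a1-low libraries, 0 met the rule, and the median difference was -1.09, or -0.87 without SNx 1. Hnf4a ran from 6.93 to 9.22 log2 CPM against 9.19 to 10.03, with 10.43 to 10.66 in NoOp. Hnf4g, its close relative, ran from 2.05 to 4.09 in the Slc3a1-low libraries and had a lowest value of 3.98 and a median of 4.36 in the Slc3a1-high libraries. In both, the highest Slc3a1-low library just overlapped the lowest Slc3a1-high library. Against NoOp all 4 fell, Hnf4a by a log2 fold change of -1.37 ± 0.34 (adjusted p = 0.0028, edgeR).

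The promoters of the lower genes were searched for motifs of HNF4, the family of Hnf4a and Hnf4g, and for the TATA box, all chosen after the values were seen. RefSeq promoters of the GRCr8 assembly, which run from 250 bases before to 50 bases after the start of each gene, matched 100 of the 128 lower genes by symbol. On either strand, the HNF4 motif CAAAGTCCA occurred in 3 of the 100 (3.0%) and in 103 of 27457 promoters of all genes (0.375%), and CAAAGTTCA in 0 of the 100 and in 81 of 27457 (0.295%). The shorter AAAGTCCA, which lies within the first of these, occurred in 6 of the 100 (6.0%), in 358 of 27457 (1.3%) and in 21 of 1377 promoters of named genes that did not meet the rule in either direction (1.53%), and in 12 of the 516 among the latter that fell in SNx against NoOp (2.33%). CAAAGTCCA occurred in 7 of the 1377 (0.508%) and in 4 of the 516 (0.775%). For CAAAGTTCA these were 7 of the 1377 (0.508%) and 2 of the 516 (0.388%). The TATA box motif TATAAA occurred in 10 of the 100, in 3916 of 27457 (14.3%), in 116 of the 1377 (8.42%) and in 41 of the 516 (7.95%). These shares rest on few promoters and are descriptions of letters in a window, and no binding was measured.

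The 6 promoters with AAAGTCCA belong to Tmigd1, Aspdh, Slc16a4, Cyp2d2, Proz and Blvra. Of the 6 occurrences, 5 start between 200 and 30 bases before the start site. The 200 bases before the start of an enzyme described here, Aspdh, and of the only solute carrier among the 6, Slc16a4, are shown 5′ to 3′ to place the motif. They come from RefSeq (GRCr8), and capitals mark the motif. Counted from the start site, its first base is at -60 in Aspdh and at -27 in Slc16a4. Slc16a4, a member of the monocarboxylate transporter family named after its values were seen, averaged 2.93 log2 CPM in the Slc3a1-low libraries, 5.46 in the Slc3a1-high and 6.86 in the NoOp libraries.
Aspdh, chr1:104094783-104094982, plus strand: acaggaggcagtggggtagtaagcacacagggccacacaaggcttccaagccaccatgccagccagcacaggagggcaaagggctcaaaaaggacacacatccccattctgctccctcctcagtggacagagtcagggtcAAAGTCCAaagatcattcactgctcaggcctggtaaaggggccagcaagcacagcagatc
Slc16a4, chr2:197599240-197599439, plus strand: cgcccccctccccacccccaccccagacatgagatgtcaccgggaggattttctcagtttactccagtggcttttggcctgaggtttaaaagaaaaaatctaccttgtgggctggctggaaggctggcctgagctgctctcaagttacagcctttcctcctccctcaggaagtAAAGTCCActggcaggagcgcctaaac

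The metabolic enzymes of the proximal tubule had a median difference of -1.95, or -1.64 without SNx 1. Of 37 listed, 29 had a symbol and were tested, and all 29 had the lower mean in the Slc3a1-low libraries and fell in SNx against NoOp (edgeR). By the rule 10 (34.5%) were lower between the SNx groups, beside 6.39% of the 2002 genes with a symbol. Against NoOp, 811 of the 2002 genes with a symbol fell. Miox, which starts the breakdown of myo-inositol, ran from 3.27 to 8.29 log2 CPM with a median of 6.32, and up to 9.81 with a median of 9.21 in the Slc3a1-high libraries without overlap, with 10.30 to 10.79 in NoOp. Pck1, which controls the first committed step of gluconeogenesis, ran from 4.84 to 9.45 against 8.86 to 11.22, with a lowest value of 12.25 in NoOp, and the SNx groups overlapped. Ddc, which makes dopamine from its precursor, ran from 1.03 to 4.75 against 4.12 to 5.69. Dpys, an enzyme of pyrimidine breakdown, ran from 1.36 to 5.57 against a lowest value of 5.66 and a median of 6.27, and Aspdh, annotated as an aspartate dehydrogenase, from 0.45 to 4.57 against 4.58 to 5.73. Both were separate by a margin of at most 0.10 and overlapped with library size alone, at differences of -2.50 and -2.49. Tmlhe, which starts carnitine synthesis, differed by -1.54 and Abhd14b, a hydrolase, by -1.07, each with overlap.

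Fatty acid oxidation genes differed less, with a median of -1.02 (-0.88 without SNx 1) over 23 of 34 listed genes. Of these 5 met the rule, 22 had the lower mean, 22 fell in SNx against NoOp and 1 rose. The 5 are 21.7%, beside 6.39% lower by the rule of the 2002 genes with a symbol. Acsm1, a medium-chain acyl-CoA synthetase, ran from 5.63 to 8.65 log2 CPM against 8.90 to 10.01 and was separate. Acsm3, of the same family, ran from 0.60 to 7.35 against 5.39 to 7.64, the widest range over the Slc3a1-low libraries in this list's named genes, and its difference went from -2.06 to -1.31 without SNx 1. Ehhadh, a peroxisomal oxidation enzyme, ran from 3.88 to 6.59 against 6.32 to 8.07. These synthetases are close relatives, so reads may be divided between them.

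One further gene among those with the largest differences was no transporter. Serpinc1 (antithrombin) ran from 0.73 to 4.83 log2 CPM against 4.93 to 6.20. Of genes without a symbol, ENSRNOG00000005858 ran from -0.59 to 8.47 against 8.69 to 10.20 and ENSRNOG00000001980 from 0.11 to 5.58 against 5.69 to 7.57. The difference in means of the first went from -4.91 to -4.06 without SNx 1.

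Genes of the distal nephron and collecting duct showed no common direction. Of 39 listed, 11 had a symbol and were tested, 0 met the rule, 5 had the lower and 6 the higher mean in the Slc3a1-low libraries, and the median difference was 0.03, or 0.15 without SNx 1. Their summed level was 499 to 1096 CPM in the Slc3a1-low libraries and 721 to 1039 CPM in the Slc3a1-high libraries, against 1110 to 1175 CPM in NoOp. Slc26a4, the anion exchanger pendrin of intercalated cells, ran from 5.95 to 7.37 log2 CPM against 6.15 to 7.41, and Slc4a9, another exchanger of these cells, from 6.44 to 7.88 against 6.57 to 7.43. Trpv6, a calcium channel, ran from 3.82 to 5.55 against 2.82 to 4.66, far above -1.20 to -0.56 in NoOp, and the SNx groups overlapped. Slc26a7 differed by -1.05 and Cldn10, a claudin of the thick limb that is also found in the proximal tubule, by -0.88, with overlap.

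**Figure D4:**
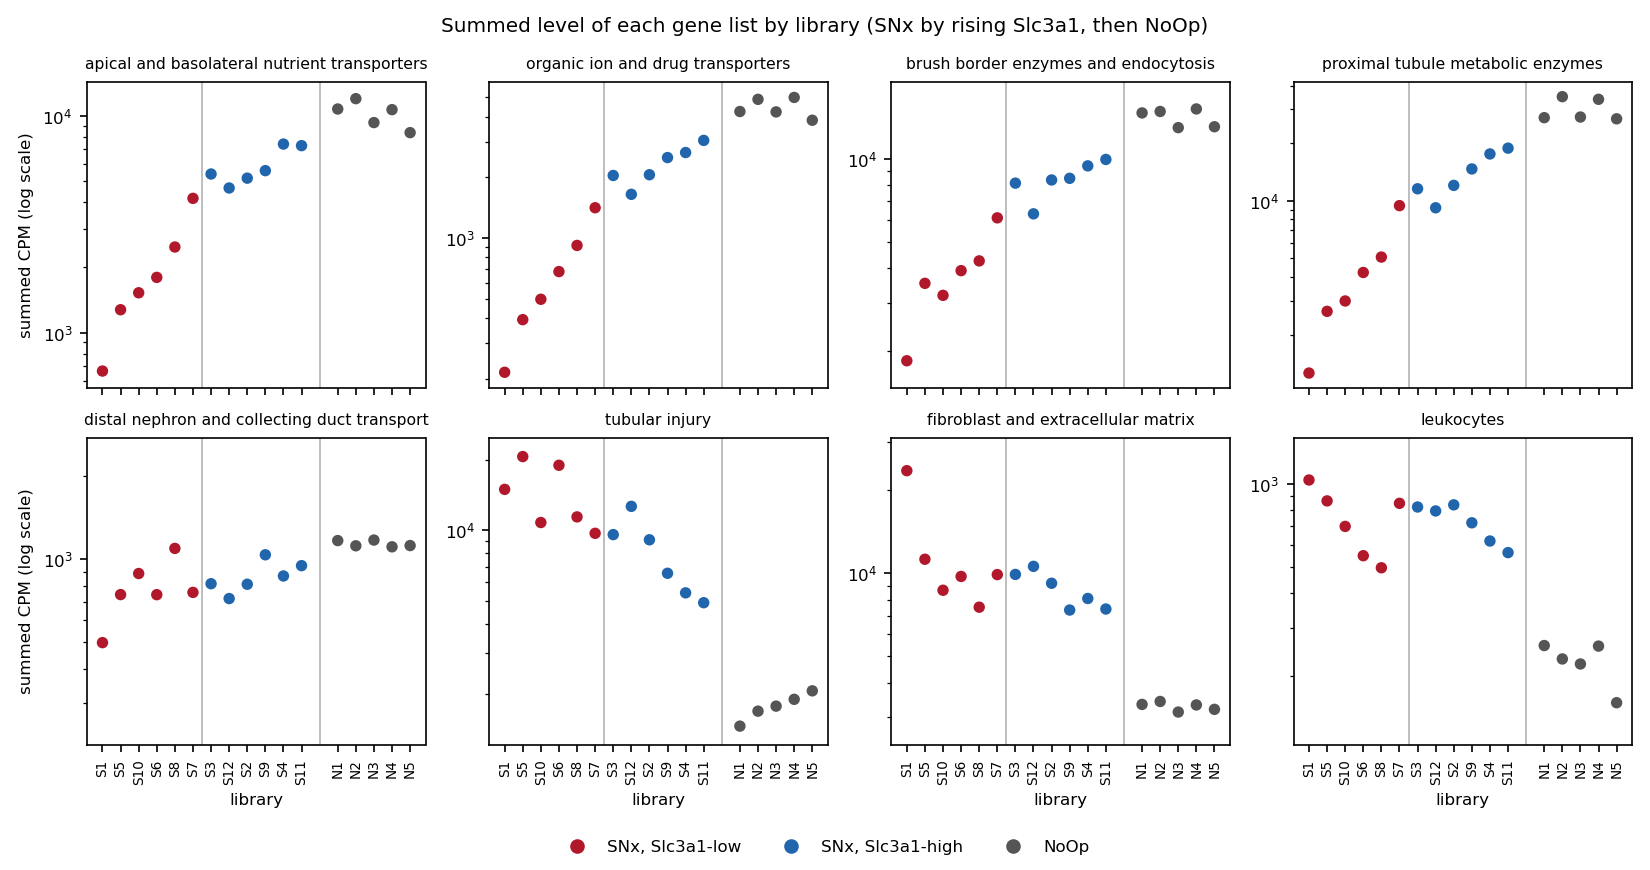
Each plot gives the summed CPM (vertical axis, log scale) of the tested members of a gene list in every library, in the order of rising Slc3a1 for SNx (S) and then NoOp (N). The proximal lists in the top row climb from SNx 1 to NoOp, the distal list stays between 499 and 1175 CPM, and in the lower row the injury, matrix and leukocyte sums of every SNx library lie above those of NoOp.

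Most genes of tubular injury had the higher mean in the Slc3a1-low libraries, and the groups overlapped for all tested but Krt7. This keratin, named after its values were seen, differed by 0.71, below the limit of 1. Of 41 listed, 24 were tested, 22 had the higher mean there, 0 met the rule and the median difference was 0.52, or 0.39 without SNx 1. Of the 2002 genes with a symbol, 984 had the higher mean there. The median of the injury list was 0.87 among libraries of the first number range and 0.24 among those of the second. The summed level was 9696 to 20580 CPM in the Slc3a1-low libraries, 4908 to 12630 CPM in the Slc3a1-high libraries and 1463 to 2068 CPM in NoOp. Lcn2 (NGAL), a known marker of tubular injury, ran from 5.68 to 7.70 log2 CPM against 4.94 to 6.57, with 1.14 to 1.96 in NoOp. Spp1 (osteopontin) ran from 12.56 to 13.85 against 11.26 to 12.99, Clu (clusterin) from 9.80 to 10.85 against 9.04 to 10.86, and C3, a complement protein, from 6.32 to 8.53 against 5.70 to 7.61. Tff3, a secreted trefoil peptide placed in this list, went the other way, from 0.73 to 4.99 against 4.54 to 7.85, with 7.68 to 8.87 in NoOp. Its log2 fold change against NoOp was -2.59 ± 0.73 (adjusted p = 0.0063, edgeR).

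Among the genes that were higher in the Slc3a1-low libraries without overlap, 3 with a symbol averaged at least 3 log2 CPM over SNx. Atf3, a transcription factor of the stress response, ran from 4.20 to 5.31 against 3.32 to 4.09, with 1.49 to 2.19 in NoOp. Rnd1, a small GTP-binding protein, ran from 3.63 to 5.23 against 3.10 to 3.48, and Mybpc2, a myosin-binding protein, from 6.08 to 6.99 against 5.03 to 5.93. All 3 were near the limit of 1. Atf3 differed by 1.08, but by 0.98 without SNx 1, by 0.99 without SNx 4 or SNx 6 and by 0.69 in the second number range. Rnd1 differed by 1.16, but by 0.68 in that range. Mybpc2 differed by 1.01, and by 0.90 to 0.99 without SNx 4, 5, 6, 8, 9, 10 or 11. Of genes without a symbol, ENSRNOG00000020339 ran from 2.96 to 4.75 against 1.89 to 2.93, and ENSRNOG00000033143 from 3.15 to 5.01 against 2.50 to 3.01.

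Markers of other cell types were measured because these are bulk samples, in which fewer cells of a type and less RNA per cell cannot be told apart. Leukocyte markers, 21 of 35 listed, had a median difference of -0.01 between the SNx groups (-0.12 without SNx 1), and their summed level was 495 to 1031 CPM in the Slc3a1-low libraries and 562 to 838 CPM in the Slc3a1-high libraries, against 160 to 259 CPM in NoOp. All 21 rose in SNx against NoOp (edgeR), beside 1070 of the 2002 genes with a symbol. Cd68, a macrophage marker, ran from 3.57 to 4.98 log2 CPM against 3.08 to 4.47, Cd14 from 3.84 to 4.96 against 2.93 to 3.96, and Adgre1, which encodes the macrophage marker F4/80, from 3.20 to 5.01 against 4.25 to 4.92. Each overlapped.

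Matrix and fibroblast genes, 24 of 41 listed, had a median difference of 0.27, or 0.04 without SNx 1. The median was 0.49 among libraries of the first number range and -0.01 among those of the second. Against NoOp, 23 of the 24 rose in SNx, beside 1070 of the 2002 genes with a symbol. The summed level of the 24 was 23552 CPM in SNx 1 and 7531 to 11240 CPM in the other Slc3a1-low libraries. In the Slc3a1-high libraries it was 7353 to 10591 CPM. Col3a1, a fibrillar collagen, ran from 8.62 to 11.52 log2 CPM against 9.25 to 10.05, and its difference went from 0.11 to -0.24 without SNx 1. Postn, Mmp14 and Ltbp2 (periostin, a membrane-bound matrix protease and a matrix protein that binds microfibrils) differed by 1.19, 0.68 and 0.63, and the groups overlapped for each. Without SNx 1, which had the highest Postn value at 6.95 log2 CPM, the Postn difference was 0.65.

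Proliferation genes, 11 of 20 listed, all had the higher mean in the Slc3a1-low libraries, with a median difference of 0.35 (0.33 without SNx 1), and 0 met the rule. The median was 0.56 among libraries of the first number range and 0.11 among those of the second. Plk1 and Aurkb, kinases of mitosis, differed by 0.72 and 0.60, and Ccna2 (cyclin A2) by 0.41. For podocytes only 2 of 11 markers had a symbol and were tested, with a difference of -0.63 for Ptpro, and for endothelium only Ehd3 of 13, with -0.68, so neither cell type was well covered. Of the 210 members of all lists that were named and tested, 1 was at 0 in at least 1 library and 0 in all libraries. The part of these cell types in the differences of the transporters was not tested.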

How the data were processed

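Rat kidney RNA of 12 SNx and 5 NoOp samples was measured by strand-specific, paired-end RNA-seq after ribosomal RNA depletion. The authors quantified transcripts against Rn6 with a selective alignment index, and the estimated counts per gene that they deposited, made with tximport, were rounded to whole numbers here. The submitters' processing notes name Salmon and limma, whose versions are not given in the sources used here. Log2 values after voom, which the authors deposited for 13318 of 23487 genes, served only as an alternative. Another 34 columns, in tables of the whole series, repeat these values and were left out.

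Genes were filtered with filterByExpr, scaled with TMM and given as log2 CPM with a prior count of 2 (R 4.3.3, edgeR 4.0.16). SNx libraries were ranked by Slc3a1, and a gene was counted as lower or higher where the means of 6 and 6 libraries differed by at least 1 on the log2 scale (2-fold) without overlap. These differences have no test because measured values chose the groups. SNx and NoOp, which the labels define, were compared with edgeR's quasi-likelihood test, two-sided, with Benjamini-Hochberg adjustment at FDR 0.05, and DESeq2 1.42.0 and limma-voom (limma 3.58.1) were alternatives. Methods were tried on simulated data. The labels do not tie libraries to animals beyond 1 number per sample, so p-values measure the spread between these samples. The lowest total was 19210434 counts, and counts are not single molecules.

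Members and gene lists were chosen with earlier results of these data known. Named genes were the 8 largest differences in each direction among counted genes with a symbol and an SNx mean of 3 log2 CPM or more, the 3 largest of each list, the 2 smallest of the transporter, brush border and distal lists, a fixed set (Lcn2, Clu, Spp1, Col3a1, Dpp4, Tmlhe, Abhd14b, Slco1a1) and 2 unnamed identifiers in each direction. Some genes that meet this rule are not reported here, and a few more are marked in the text as named after their values were seen. Symbols came from supplementary gene lists and covered 2007 genes. Plots used Python 3.11.15 with matplotlib 3.10.9.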

Additional observations from a re-analysis of the deposited data

Results flagged for a closer look

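Over 70 genes named in the text, each group of 5 or 6 libraries was searched for a library far from the rest by Dixon's criterion. Of 210 groups 10 held one, and chance alone gives about 1 in 20, or 10.5. Values are in log2 CPM. In the Slc3a1-high group, SNx 12 was lowest for Cubn at 9.10, against 9.49 to 9.61 in the others, and highest for Aurkb at 3.17, against 1.38 to 1.96. In the Slc3a1-low group, SNx 7 was lowest for Clu at 9.80, against 10.47 to 10.85. The other 7 were NoOp libraries. NoOp 5 was lowest for Aqp7 at 5.43 (others 5.82 to 5.91), for Adgre1 at 2.71 (3.53 to 3.79) and for C3 at 3.04 (3.98 to 4.35). NoOp 1 was lowest for Tff3 at 7.68 (8.64 to 8.87) and for Aqp1 at 10.995 (11.49 to 11.68). NoOp 3 was highest for Acsm3 at 9.09 (8.29 to 8.51) and for ENSRNOG00000005858 at 11.11 (10.70 to 10.81).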

How the results depend on the processing

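The numbers of genes lower and higher in the Slc3a1-low libraries, 213 and 37, depended on how many libraries had to be separate and on the scaling. They were 127 and 64 with library size alone, 1066 and 568 for the 4 lowest against the 4 highest libraries, and 770 and 249 for the 5 against the 5. No overlap alone gave 554 and 341, and a difference of at least 1 alone 835 and 270. Libraries numbered in the first range only (3 against 3) gave 981 and 450, and those of the second 302 and 121. With at least 10 counts in every library 18 genes were higher. Fewer libraries to separate make the rule easier to meet, and fewer genes were tested under the count minimum. The cause of the other shifts was not tested. Leaving out each SNx library in turn gave 179 to 693 lower and 29 to 179 higher genes, most of both without SNx 7. The number of genes past the threshold for SNx against NoOp, 8949, ran from 7914 to 9438 when each library was left out and was 9414 with DESeq2 and 9004 with limma-voom. No paired analysis was possible because the labels give the groups no shared replicate numbers. For the genes named, 1724 recomputed differences between the SNx groups moved by less than 1 SD and 20 by more, and 20 calls against NoOp were lost, 8 were gained and 1512 stayed as they were. Depth limits the lowest values, such as those of Slco1a1 and Slc22a25 in SNx 1.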

Other observations

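Some solute carriers were higher in the Slc3a1-low libraries, and 4 of them are named here after their values were seen. Slc34a2, a sodium-phosphate cotransporter best known from lung and gut and a relative of Slc34a1, ran from 8.06 to 9.48 log2 CPM in the Slc3a1-low libraries, from 7.36 to 8.32 in the Slc3a1-high libraries and from 5.82 to 6.38 in NoOp. Slc7a11, the cystine-glutamate exchanger, ran from 0.91 to 2.77 against -0.34 to 1.74, and NoOp libraries held as few as 0 estimated counts. Slc7a5, a carrier of large neutral amino acids, ran from 4.02 to 4.93 against 3.67 to 4.36, and Slc16a3, which exports lactate, from 3.37 to 4.54 against 3.04 to 3.54. The SNx groups overlapped for each of the 4. All rose in SNx against NoOp, with adjusted p-values of 2.16e-05 (Slc34a2), 6.80e-06 (Slc7a11), 0.00036 (Slc7a5) and 0.0054 (Slc16a3) by edgeR's quasi-likelihood test.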
